A study of Mus musculus with 9 samples.

Results

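The genes described here are MYC, its network partners and the factors that build ribosomes, 39 genes in all of the 20732 in the count table. They were chosen by name, and each of the 39 symbols matched 1 gene. Of them, 4 (Myc, Max, Mxd1 and Mxd4) belong to the MYC network, and 35 code for ribosome biogenesis factors. The levels come from RNA sequencing of group 2 innate lymphoid cells (ILC2s), lymphocytes without antigen receptors that reside in tissues and make type 2 cytokines. They were sorted from pancreata of C57BL6/J mice on day 5, after injections of PBS or of 200 ng IL-33, an alarmin that activates ILC2s, on days 0 and 1. The sort kept live cells positive for CD45 and KLRG1 and negative for CD3, B220 and lineage markers. The sample labels give 4 PBS libraries, titled naive, and 5 IL-33 libraries, whereas the design text gives 5 and 4, and the labels were followed. Whether each library stands for its own mouse is not stated, and p-values therefore refer to the spread among these 9 libraries, part of which may be technical.

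MYC is a transcription factor that binds DNA as a dimer with MAX, most often at the letters CACGTG, called an E-box. MXD proteins compete for MAX and repress at the same sites, and genes for ribosome production are among the best known targets of MYC. Ribosomes are built in the nucleolus: RNA polymerase I transcribes the ribosomal RNA precursor, small nucleolar ribonucleoproteins (snoRNPs) modify it, and assembly factors then fold, cut and package it into a small and a large subunit. In lymphocytes this machinery is known to be raised when resting cells are driven into growth and division.

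Since the MYC network acts through the E-box, the promoters of the members were searched for it. RefSeq promoters on GRCm38.p6, running from 250 bases before to 50 after each start site, matched 33 of the 39 members. The letters CACGTG, which read the same on both strands, were found in 10 of these 33 (30.3%). They were found in 1083 of the 9280 genes tested for expression that have a promoter in the same table (11.7%) and in 2349 of all 32851 promoters of that length (7.15%). Of the small-subunit assembly factors 5 of 6 held one (83.3%), against 0 of the 4 members of the H/ACA snoRNP and 1 of 7 for RNA polymerase I. The stretches of 30 bases below show the match in the small-subunit factors, with the E-box in capitals, because in each of the 5 it starts between 17 and 37 bases after the start site.

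Wdr43, chr17:71616220-71616249, plus strand: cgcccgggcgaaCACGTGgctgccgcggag
Tsr1, chr11:74898092-74898121, plus strand: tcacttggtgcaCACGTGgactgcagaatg
Ltv1, chr10:13193092-13193121, minus strand: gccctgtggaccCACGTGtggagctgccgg
Utp20, chr10:88826765-88826794, minus strand: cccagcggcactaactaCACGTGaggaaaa
Pno1, chr11:17211540-17211569, minus strand: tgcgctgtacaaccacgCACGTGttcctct
Mybbp1a, chr11:72441347-72441376, plus strand: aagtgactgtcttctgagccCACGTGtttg

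Mybbp1a, a nucleolar MYB-binding protein, is shown with them because its E-box starts 40 bases after the start site. A match within 10 to 50 bases after a start site was present in 6 of 33 members (18.2%) and in 120 of 9280 tested genes (1.29%), a window chosen after the positions were seen. The other 4 matches started between positions -219 and 2, and 2 of them were in the MYC network itself. They are shown because Max and Mxd4 code for the partner and for a competitor of MYC.

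Max, chr12:76962234-76962263, minus strand: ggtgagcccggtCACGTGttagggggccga
Mxd4, chr5:34187912-34187941, minus strand: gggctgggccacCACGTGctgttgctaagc

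The match of Max starts at position -3 and that of Mxd4 at position -219, counted from the start site. Pes1 and Nop2, factors of the large subunit, held the other 2. These letters say nothing of binding, which was not measured here. Of the other genes of the pathway listed beside the members, 17 of the 96 that were tested and have a promoter held an E-box (17.7%).

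Total counts lay between 14216976 and 21020023 per library. Levels are given as CPM, which are counts scaled to a common library total with TMM factors, a step that evens out libraries dominated by a few abundant genes. Changes are given as log2 of IL-33 over PBS with their standard error (SE). A gene was called where the p-value of edgeR's quasi-likelihood test, adjusted over 14405 genes by the Benjamini-Hochberg method, was under 0.05. All 12 ILC2 markers were measured, with summed levels of 9979 to 12797 CPM in PBS and 10910 to 15867 CPM in IL-33 libraries, and of these Il5, Il13 and Klrg1 were called higher, Icos and Il7r lower and 7 not. Genes of pancreatic acinar cells took 32.2% of the counts of PBS replicate 4, against 0.0981% to 5.70% in the other PBS and 0.283% to 9.24% in the IL-33 libraries, and its TMM factor was 0.532, against 0.990 to 1.17 in the others. Erythroid genes, mainly globins, took 0.0142% to 0.0343% of counts in PBS and 0.0424% to 0.365% in IL-33 libraries, and the 4 that were tested were called higher. The T cell markers Cd3e, Cd3d and Trac were low, at up to 9.32, 4.04 and 3.15 CPM, and the B cell marker Ms4a1 was at or near 0. Higher levels were seen for Cd3g, Trbc1, Trbc2, Cd79b and Ighm. Of the T and B cell lists, Cd79b was called higher and Trbc1 and Ighm lower. Of the endothelial list Ptprb and Kdr were called lower (2 of 10 tested), as were Epcam of the ductal list (1 of 4) and Col1a2 of the fibroblast list (1 of 3). The 2 measured mast cell genes summed to 15.4 to 45.8 CPM in PBS and 94.2 to 357 CPM in IL-33 libraries, and Cpa3 was called higher. What part these other cells have in the changes given here was not tested. In bulk RNA, a change in the share of cells that hold a transcript and a change in the amount per cell cannot be told apart.

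Of the 39 members, 2 were called higher with IL-33, 5 lower and 32 not. Nhp2, of the H/ACA snoRNP, and Pno1, a late small-subunit factor, rose. Mybbp1a, Nop14, Wdr43, Ltv1 and Nop53 fell. All 39 passed the filter on low counts. The 7 called members are 17.9% of the 39, against 25.2% of all genes tested. By direction, 5.13% were called higher against 13.7% of all genes, and 12.8% lower against 11.6%. The groups did not overlap for 4 members, Nhp2 above and Nop14, Wdr43 and Nop53 below, which is 10.3% against 26.1% of all genes (15.3% above and 10.8% below). The change had a negative sign in 24 members and a positive sign in 15, with a median of -0.19 on the log2 scale, against -0.05 over all genes tested.

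The median size of a member's log2 change, regardless of sign, was 0.40, against 0.62 over all genes, and 2 members (5.13%, Polr1b and Nop14) reached a 2-fold difference, against 30.2% of all genes. At an unadjusted p under 0.05 stood 15 members (38.5%), against 37.4% of all genes. The median coefficient of variation of a member within a group was 23.9% in PBS and 22.5% in IL-33 libraries, and the median SE was 0.23. With scaling by library size alone, which applies no TMM factor and moves the median change of all genes from -0.05 to 0.08, Nhp2 was the only member called, and all genes split into 1332 higher and 644 lower in place of 1967 and 1666. Without PBS replicate 4, 1 member was called higher and 6 lower, and without IL-33 replicates 1, 2 and 3, which hold most of the beta-globin reads, 1 and 2.

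**Figure D1:**
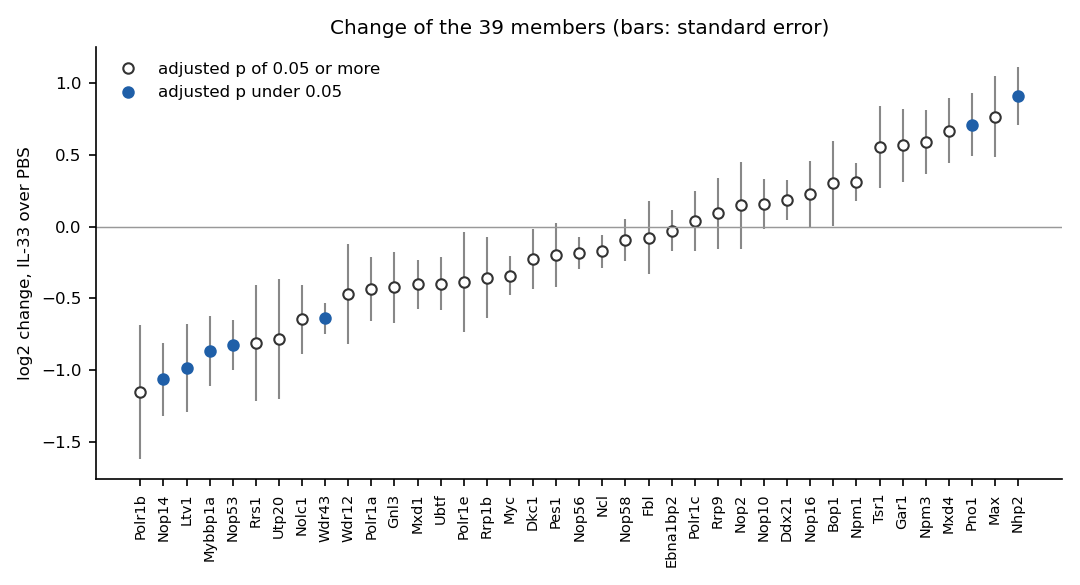
Log2 change of each of the 39 genes, IL-33 over PBS (vertical axis), in the order of the change (horizontal axis). Points are edgeR estimates from 4 PBS and 5 IL-33 libraries, filled where the adjusted p was under 0.05, and bars are the SE; the changes run from -1.15 for Polr1b to 0.91 for Nhp2.

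**Figure D2:**
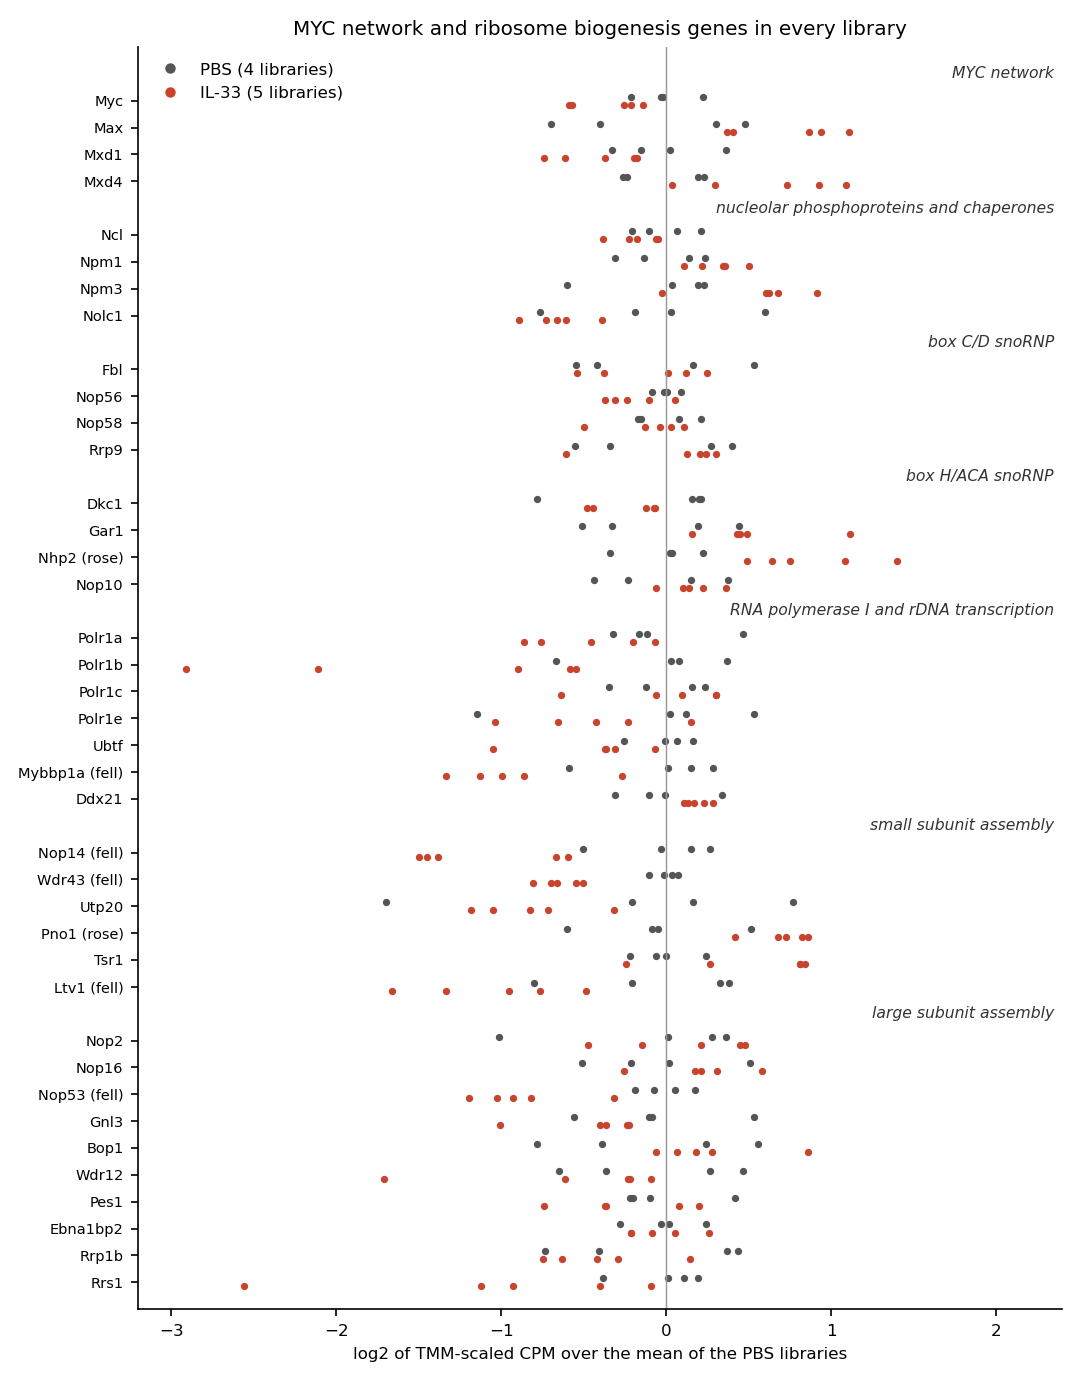
Level of each gene in each library, as log2 of its scaled CPM over the mean of the 4 PBS libraries (horizontal axis), with PBS libraries in grey and the 5 IL-33 libraries in red. The IL-33 points of Nhp2 all lie to the right of its PBS points and those of Nop14, Wdr43 and Nop53 all to the left, while in the other 35 genes the groups overlap.

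In the MYC network none of the 4 members was called. Myc itself stood at 269, 228, 226 and 199 CPM in the PBS libraries and at 155, 154, 209, 193 and 199 CPM in the IL-33 libraries. The IL-33 libraries were on the low side, 4 of 5 below the lowest PBS library, and the groups overlapped through IL-33 replicate 3. IL-33 replicate 5 was below PBS replicate 4 only narrowly, at 199.14 against 199.24 CPM. The means were 231 ± 29.0 (SD, n = 4) and 182 ± 25.8 CPM (SD, n = 5), giving a log2 change of -0.34 with an SE of 0.13 and an adjusted p of 0.0902 by edgeR. The sign of the Myc change was negative in all 21 alternative analyses, with values from -0.85 to -0.22, and it passed the threshold in 4 of them (at the lowest adjusted p, 0.0218, in the DESeq2 Wald test).

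Max, the partner that MYC needs to bind DNA, leaned the other way. Its levels were 25.9, 11.5, 23.0 and 14.1 CPM with PBS and 34.0, 40.1, 35.7, 24.1 and 24.7 CPM with IL-33. IL-33 replicates 1, 2 and 3 exceeded every PBS library, while replicates 4 and 5 fell within the PBS range. The log2 difference was 0.76 with an SE of 0.28, at an adjusted p of 0.0761 by edgeR. Without IL-33 replicates 1, 2 and 3 it was 0.40 at an adjusted p of 0.567.

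The MXD genes, whose proteins oppose MYC, differed from each other in sign. Mxd1 was measured at 220.3, 279, 195 and 173 CPM in PBS and at 130.1, 142, 192, 189 and 168 CPM in IL-33 libraries. Mxd4 was measured at 65.7, 64.7, 90.9 and 88.5 CPM in PBS and at 147, 95.1, 165, 129 and 79.3 CPM in IL-33 libraries. For Mxd1, IL-33 replicates 1, 2 and 5 were below the PBS range, and for Mxd4 all but IL-33 replicate 5 were above it. The log2 differences were -0.40 ± 0.17 (SE) for Mxd1 at an adjusted p of 0.115 and 0.67 ± 0.23 (SE) for Mxd4 at 0.0583, by edgeR. With 1 library left out, Mxd4 lay between 0.54 and 0.79 at adjusted p-values of 0.0255 to 0.144. Among these fits it was called only without IL-33 replicate 5. Over all 21 alternative analyses Mxd4 lay between 0.44 and 0.81 and passed the threshold in 5. Max and Mxd1 each passed it in 1, the DESeq2 Wald test.

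Ratios of 2 members within a library do not depend on scaling between libraries, and they were compared by an exact two-sided permutation test over all splits of 4 against 5 libraries, whose smallest p is 0.0159. The log2 ratio of Myc to Max counts was 3.37, 4.30, 3.30 and 3.81 in PBS libraries and 2.19, 1.94, 2.55, 3.01 and 3.01 in IL-33 libraries, with no overlap. Its mean went from 3.70 to 2.54, at p = 0.0159 by the exact test and 0.0794 adjusted over the 10 ratios. The ratio of Mxd1 to Max likewise did not overlap, with means of 3.59 and 2.38, the same exact p of 0.0159 and the same adjusted value. Both ratios have Max as denominator, so they are not independent results. The ratio of Mxd4 to Mxd1 was higher by 1.03 with IL-33, at an exact p of 0.0317 and 0.106 adjusted, and its groups overlapped. No ratio passed 0.05 after adjustment, but with 10 ratios and a smallest p of 0.0159 that would have needed at least 4 ratios at the smallest p, so the adjusted values say little.

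**Figure D3:**
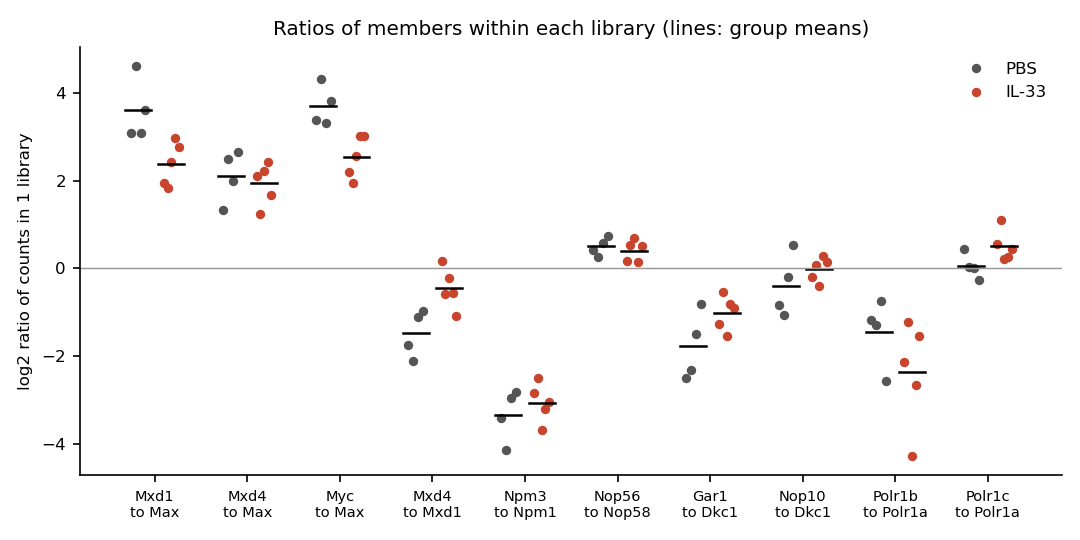
Log2 ratio of the counts of 2 members within each library (vertical axis) for the 10 pairs tested, with PBS libraries in grey, IL-33 libraries in red and group means as lines. Myc to Max and Mxd1 to Max are the 2 pairs whose groups do not overlap, with IL-33 libraries below PBS libraries in both.

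Of the other 10 genes listed for the MYC network, 8 were tested, 1 was called higher and 2 lower. The 3 called are 37.5% of those tested, against 25.2% of all genes. By direction, 12.5% were higher against 13.7% of all genes, and 25.0% lower against 11.6%. Mxd3, the MXD member known from cycling cells, rose from 1.30 ± 0.970 CPM in PBS (SD, n = 4) to 33.0 ± 9.42 CPM in IL-33 libraries (SD, n = 5). Its log2 change was 4.60 ± 0.68 (SE) at an adjusted p of 0.0014. Mga, a large MAX-binding repressor, fell from 94.4 ± 36.4 to 21.2 ± 6.03 CPM, a log2 change of -2.15 at an adjusted p of 0.00121. Mlxip, a partner of the related factor MLX, changed by -0.71 at an adjusted p of 0.0262, and leaving out any PBS library but replicate 1, or IL-33 replicate 4 or 5, ended the call. So did scaling by library size alone and removal of the length and GC trend, and over the 21 alternatives its change lay between -0.91 and -0.32. Mxd3 and Mga were called in all 21 alternatives.

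None of the 4 nucleolar phosphoproteins and chaperones was called. Ncl codes for nucleolin, which binds the ribosomal RNA precursor, and Npm1 for nucleophosmin, a nucleolar histone and ribosome chaperone. Npm1 stood at 556, 595, 459.9 and 406 CPM in PBS and at 586, 544, 645, 715 and 641 CPM in IL-33 libraries, a log2 difference of 0.31 ± 0.13 (SE) at an adjusted p of 0.119. IL-33 replicates 3, 4 and 5 were above the PBS range. Npm3, a relative of Npm1, stood at 52.2, 33.6, 59.6 and 58.2 CPM in PBS and at 81.4, 95.9, 50.04, 78.4 and 77.4 CPM in IL-33 libraries. Every IL-33 library but replicate 3 was above the PBS range, and the log2 difference of 0.59 ± 0.22 (SE) had an adjusted p of 0.0801. With 1 library left out it lay between 0.44 and 0.71 at 0.0297 to 0.171, called only without IL-33 replicate 3. With limma voom it was 0.70 and called, at an adjusted p of 0.0469, and with the length and GC trend removed it was 0.14.

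Nolc1, which shuttles snoRNPs and binds RNA polymerase I, gave values on the low side. It stood at 74.9, 129, 86.9 and 50.3 CPM in PBS and at 51.4, 54.0, 46.0, 65.1 and 56.0 CPM in IL-33 libraries. Its PBS values were spread widely, with replicate 2 at the top and replicate 4 inside the IL-33 range. The log2 difference of -0.65 ± 0.24 (SE) had an adjusted p of 0.0759. Without PBS replicate 4 it was -0.84 at 0.0161, and without PBS replicate 2 it was -0.37 at 0.223. Of the 21 alternatives, 4 called Nolc1. Ncl spanned 491 to 657 CPM in PBS and 436 to 548 CPM in IL-33 libraries, a log2 difference of -0.17 ± 0.11 (SE) at 0.299, and with the length and GC trend removed its sign turned, to 0.43 at an adjusted p of 0.0363.

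Proteins of the box C/D snoRNP, which place methyl groups on ribosomal RNA, gave log2 differences between -0.19 and 0.09, and none was called. Fibrillarin (Fbl, the methyltransferase) averaged 76.6 ± 27.2 CPM in PBS (SD, n = 4) and 72.5 ± 16.2 CPM in IL-33 libraries (SD, n = 5). The core protein Nop56 was at 141, 139, 132 and 149.5 CPM in PBS and at 109, 146, 113, 119 and 130.5 CPM in IL-33 libraries. Its PBS libraries were closely grouped, and 4 of 5 IL-33 libraries lay below them. Rrp9, which belongs to the U3 snoRNP, was at 61.0, 40.0, 34.5 and 66.6 CPM in PBS and at 58.3, 62.4, 33.2, 59.8 and 55.3 CPM in IL-33 libraries, and replicate 3 of each group was the lowest. Log2 differences were -0.08 for Fbl, -0.19 for Nop56, -0.09 for Nop58 (the partner of Nop56) and 0.09 for Rrp9, with SEs of 0.11 to 0.25 and adjusted p-values of 0.254 to 0.851. The Nop56 to Nop58 ratio differed by -0.10 between groups at an exact permutation p of 0.492.

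The box H/ACA snoRNP, whose enzyme dyskerin (Dkc1) converts uridine to pseudouridine, holds the member with the largest rise. Nhp2, one of its core proteins, lies on chromosome 11 at 51619735 to 51623714 (GRCm38). It stood at 83.4, 64.7, 95.6 and 84.2 CPM in PBS and at 128, 216, 115, 174 and 138 CPM in IL-33 libraries. Every IL-33 library was above every PBS library. The means were 82.0 ± 12.8 (SD, n = 4) and 154 ± 41.0 CPM (SD, n = 5), a 1.88-fold rise with a log2 change of 0.91 ± 0.20 (SE) at an adjusted p of 0.00973 by edgeR. The call was kept with any 1 library left out, at adjusted p-values of 0.00733 to 0.0331, and was lost when the trend with length and GC content was removed (0.43 at 0.0828).

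The other proteins of the same particle were not called. Dkc1 was at 120.3, 121, 116 and 60.7 CPM in PBS and at 99.9, 95.9, 99.5, 75.0 and 76.8 CPM in IL-33 libraries. The other 3 PBS libraries lay together above every IL-33 library, while PBS replicate 4 lay below all 5. The log2 difference was -0.23 ± 0.21 (SE) at an adjusted p of 0.462 with all libraries, and -0.43 at 0.048 without PBS replicate 4. Over the 9 libraries left out in turn it lay between -0.43 and -0.15, with an adjusted p of up to 0.700. Gar1 and Nop10, the small proteins of the particle, differed by 0.56 at an adjusted p of 0.139 and by 0.16 at 0.541. Within libraries, the log2 ratio of Gar1 to Dkc1 differed by 0.76 at an exact permutation p of 0.143.

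Of the 7 members that act at RNA polymerase I and on ribosomal DNA, Mybbp1a fell (14.3%, against 11.6% of all genes called lower). The other 6 were not called. Mybbp1a lies on chromosome 11 at 72441355 to 72451768. It stood at 56.8, 86.0, 95.1 and 104 CPM in PBS and at 47.0, 71.1, 39.1, 42.9 and 33.9 CPM in IL-33 libraries. PBS replicate 1 was lower than IL-33 replicate 2, and the other 4 IL-33 libraries were below the PBS range. The means were 85.5 ± 20.4 (SD, n = 4) and 46.8 ± 14.4 CPM (SD, n = 5), giving a log2 change of -0.87 ± 0.24 (SE) at an adjusted p of 0.0277. The call was kept when PBS replicate 1 or IL-33 replicate 2 was left out and lost with any other library left out, at adjusted p-values of at most 0.0664, and over all 9 libraries left out in turn the change lay between -1.07 and -0.77.

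Polr1b, a core subunit of the polymerase, had the most negative estimate of all members but was not called. Its levels were 22.5, 21.8, 27.6 and 13.5 CPM in PBS and 11.4, 14.6, 2.84, 4.95 and 14.3 CPM in IL-33 libraries. IL-33 replicates 3 and 4 were far below the rest, and PBS replicate 4 lay among the other IL-33 libraries. The log2 difference of -1.15 had an SE of 0.47 and an adjusted p of 0.101. Of the 21 alternatives, only the DESeq2 Wald test called Polr1b, at an adjusted p of 0.0468. Polr1c, a subunit shared with RNA polymerase III, was at 69.4, 54.3, 46.4 and 65.8 CPM in PBS and at 72.9, 72.8, 63.1, 37.9 and 56.5 CPM in IL-33 libraries, a log2 difference of 0.04 at an adjusted p of 0.909. Ddx21, a helicase that works on polymerase I transcripts, had the largest positive estimate of this role, 0.19 ± 0.14 (SE) at an adjusted p of 0.361. It stood at 86.7, 63.9, 68.2 and 55.3 CPM in PBS and at 74.0, 77.1, 80.3, 75.1 and 83.7 CPM in IL-33 libraries, the IL-33 values falling inside the PBS range.

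The remaining 3 were Polr1a (the largest subunit), Polr1e and Ubtf, the factor that opens ribosomal DNA for transcription. Their log2 differences were -0.43, -0.38 and -0.40, at adjusted p-values of 0.184, 0.454 and 0.146. Polr1c relative to Polr1a was higher by 0.45 with IL-33 at an exact permutation p of 0.0794, and 0.198 adjusted. Of 11 further genes listed for this role, all tested, 2 were called higher and 1 lower, together 27.3% and near the 25.2% of all genes. By direction, 18.2% were higher against 13.7% of all genes, and 9.09% lower against 11.6%. Polr1d, the other subunit shared with RNA polymerase III, rose by 1.26 on the log2 scale, from 71.5 ± 26.2 to 170.8 ± 20.4 CPM, at an adjusted p of 0.00448. Taf1d, of the selectivity factor that recruits the polymerase, rose by 0.80 at 0.0343, a call that ended when PBS replicate 1 or any IL-33 library but replicates 2 and 3 was left out. Polr1h, a small subunit of the enzyme, fell by 0.76 on the log2 scale, at 0.00829.

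Of the 6 small-subunit assembly factors, 1 was called higher and 3 lower, against 25.2% of all genes in either direction, and their median change was -0.71. Nop14 and Wdr43 belong to the particle that processes the small-subunit precursor in the nucleolus. Nop14, on chromosome 5 at 34638536 to 34660148, was at 58.6, 63.5, 37.2 and 51.5 CPM in PBS and at 20.2, 34.9, 18.7, 33.2 and 19.3 CPM in IL-33 libraries. All 5 IL-33 libraries were below the PBS libraries, though IL-33 replicates 2 and 4 came near PBS replicate 3. The means were 52.7 ± 11.4 (SD, n = 4) and 25.3 ± 8.04 CPM (SD, n = 5), giving a log2 change of -1.06 at an adjusted p of 0.014. It was called with any 1 library left out, at adjusted p-values of 0.0117 to 0.0464.

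Wdr43, on chromosome 17 at 71615895 to 71659031, had the smallest adjusted p of all members. It was at 79.3, 81.2, 76.8 and 72.1 CPM in PBS and at 47.7, 54.6, 53.0, 44.2 and 48.9 CPM in IL-33 libraries. Both groups were tight and well apart. The means were 77.4 ± 3.93 (SD, n = 4) and 49.7 ± 4.17 CPM (SD, n = 5), giving a log2 change of -0.64 ± 0.11 (SE) at an adjusted p of 0.00306, and the adjusted p stayed between 0.00456 and 0.0122 with any 1 library left out.

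Ltv1 and Pno1 act late, when the small subunit leaves the nucleus and matures, and they moved in opposite directions. Ltv1, on chromosome 10 at 13178140 to 13193168, was at 50.1, 34.7, 52.1 and 23.0 CPM in PBS and at 15.9, 23.5, 12.6, 28.5 and 20.6 CPM in IL-33 libraries. Pno1, on chromosome 11 at 17203198 to 17211568, was at 39.2, 18.1, 26.6 and 25.9 CPM in PBS and at 48.6, 43.8, 36.6, 45.4 and 49.8 CPM in IL-33 libraries. For Ltv1 the groups met through PBS replicate 4, and for Pno1 through PBS replicate 1, which was above IL-33 replicate 3. The log2 changes were -0.98 ± 0.30 (SE) for Ltv1 at an adjusted p of 0.0396 and 0.71 ± 0.22 (SE) for Pno1 at 0.0404. With 1 library left out, the Ltv1 call was kept only where that was PBS replicate 4 or IL-33 replicate 4 (adjusted p up to 0.107 otherwise), and the Pno1 call only where it was PBS replicate 1 or IL-33 replicate 3 (up to 0.0865).

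Utp20, a large scaffold protein of the same precursor particle, spanned 5.88 to 32.5 CPM in PBS and 8.42 to 15.3 CPM in IL-33 libraries. PBS replicate 3 was the lowest of all 9. The log2 difference was -0.78 ± 0.42 (SE) at an adjusted p of 0.201, and it hung on single PBS libraries: without replicate 3 it was -1.09 at 0.0281, and without replicate 1 it was -0.40 at 0.536. With the length and GC trend removed it was -0.14. Tsr1, a GTPase-like factor of the late small subunit, spanned 6.40 to 8.80 CPM in PBS and 6.29 to 13.3 CPM in IL-33 libraries, at 0.55 with an adjusted p of 0.19.

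Of the 39 other small-subunit genes tested, 2 were called higher and 8 lower, together 25.6% and near the 25.2% of all genes. By direction, 5.13% were higher against 13.7% of all genes, and 20.5% lower against 11.6%. Utp18, Ddx10 and Pwp2, which are nucleolar processing factors, fell by 0.94, 1.22 and 1.51 on the log2 scale, at adjusted p-values of 0.00488, 0.00599 and 0.00955. Rcl1, a cyclase-like protein of the same particle, rose by 1.27 at an adjusted p of 0.00802. Imp3, a partner of the U3 snoRNA, was called at 0.68 with an adjusted p of 0.0484, and the call was lost with any 1 library left out other than IL-33 replicate 3. Over the alternatives its change went down to 0.09.

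**Figure D4:**
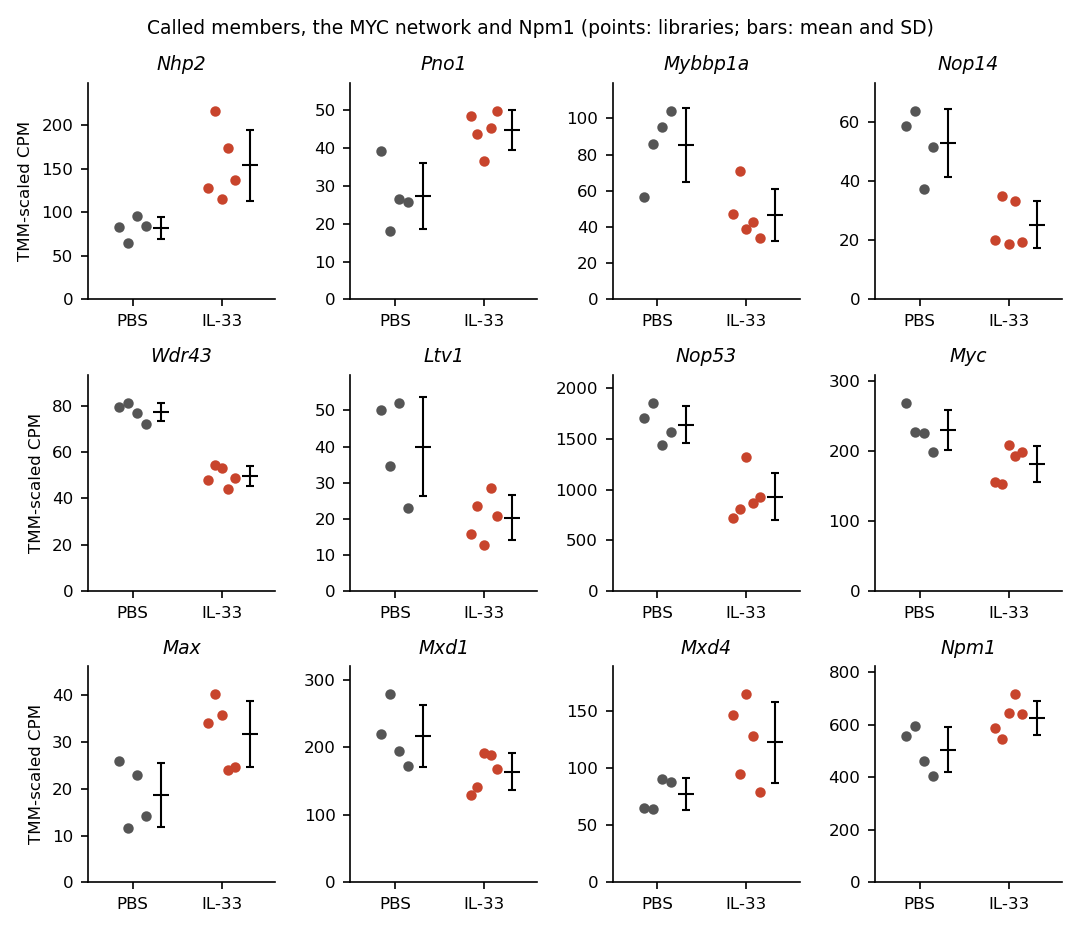
Scaled CPM (vertical axes, each from 0) of the 7 called members, the MYC network and Npm1 in each library, with PBS libraries in grey, IL-33 libraries in red and the group mean ± SD beside the points. Libraries of Wdr43 lie close together around 77.4 and 49.7 CPM, and those of Nop53 stand at much higher levels, with means of 1643 and 929 CPM.

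Of the 10 large-subunit factors, Nop53 fell and 9 were not called. Nop53 takes part in the maturation of the large subunit and its 5S ribonucleoprotein, and lies on chromosome 7 at 15936183 to 15946074. It was at 1707, 1858, 1441 and 1565 CPM in PBS and at 719, 808, 1321, 864 and 931 CPM in IL-33 libraries. IL-33 replicate 3 came nearest to the PBS range and stayed below it. The means were 1643 ± 179.8 (SD, n = 4) and 929 ± 233 CPM (SD, n = 5), or 0.565 of the PBS level, a log2 change of -0.82 ± 0.17 (SE) at an adjusted p of 0.00768. It was called with any 1 library left out, at adjusted p-values of 0.00101 to 0.0275.

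Bop1, Pes1 and Wdr12 form the PeBoW complex, which is needed to process the large-subunit precursor, and gave estimates of both signs. Bop1 was at 27.6, 21.03, 53.3 and 42.7 CPM in PBS and at 37.8, 65.5, 34.7, 41.0 and 43.9 CPM in IL-33 libraries, the largest positive estimate of this role at 0.30 ± 0.29 (SE) with an adjusted p of 0.49. Its groups overlapped widely, with IL-33 replicate 2 the only library above the PBS range. Pes1 differed by -0.20 and Wdr12 by -0.47, at adjusted p-values of 0.548 and 0.357. Nop2, an RNA methyltransferase, and Nop16 differed by 0.15 and 0.23. Gnl3 (nucleostemin, a nucleolar GTPase), Rrp1b and Rrs1 differed by -0.42, -0.35 and -0.81, and Ebna1bp2 by -0.03. Adjusted p-values of these 6 lay between 0.176 and 0.905.

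Of the 48 other large-subunit genes tested, 2 were called higher and 8 lower, together 20.8% against 25.2% of all genes. By direction, 4.17% were higher against 13.7% of all genes, and 16.7% lower against 11.6%. Ppan fell from 101 ± 20.3 to 30.8 ± 11.8 CPM, a log2 change of -1.71 at an adjusted p of 0.00213. Mdn1, the giant ATPase that remodels the large subunit, fell by 2.20 on the log2 scale and the GTPase gene Gnl2 by 1.33. Pa2g4 and Nmd3, an export adaptor of the large subunit, rose by 0.75 and 1.09, at adjusted p-values of 0.0197 and 0.047. Leaving out PBS replicate 1, PBS replicate 2 or IL-33 replicate 4 ended the Pa2g4 call, and leaving out any library but PBS replicate 4 ended the Nmd3 call. Among 9 genes of snoRNP assembly, 1 was called (11.1%, against 25.2% of all genes) and 8 were not. The called gene was Znhit6, which fell by 1.10 on the log2 scale at 0.0245. Its call ended when PBS replicate 3, PBS replicate 4, IL-33 replicate 2 or IL-33 replicate 4 was left out.

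Across all roles, 115 other genes of the pathway were tested, of which 7 were called higher (6.09%, against 13.7% of all genes), 20 lower (17.4%, against 11.6%) and 88 not. The 27 called are 23.5% of those tested, near the 25.2% of all genes. Of these 27 calls, 9 were kept with library size alone, 17 with the length and GC trend removed and 6 without IL-33 replicates 1, 2 and 3, and 14 were lost with some single library left out. Signs were negative in 76 and positive in 39, with a median of -0.27, against -0.05 over all genes. Beside them, all 16 listed cell cycle genes were called higher, against 13.7% of all genes, with a median change of 3.11. Ccnb1 (cyclin B1) rose by 5.40, Birc5 (survivin) by 5.25 and Tyms (thymidylate synthase) by 2.88. Summed, these 16 genes went from 362 to 472 CPM in PBS to 2113 to 3101 CPM in IL-33 libraries.

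The summed level of the 35 ribosome biogenesis members was 4845, 4796, 4266 and 4367 CPM in PBS and 3461, 3919, 3915, 3876 and 3783 CPM in IL-33 libraries, lower in every IL-33 library. Nop53 made up most of the gap. Without it the sums ran from 2803 to 3138 CPM in PBS and from 2595 to 3111 CPM in IL-33 libraries and overlapped. The share of total counts taken by all 39 members ran from 0.257% to 0.628% in PBS and from 0.388% to 0.489% in IL-33 libraries, with PBS replicate 4, the library rich in acinar RNA, the lowest.

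Levels can be compared between genes only per length. Per kilobase of the longest principal transcript of GENCODE M21, Nop53 led in PBS at 517 CPM and Npm1 came next at 309 CPM. With IL-33 the order of these 2 was turned around, at 292 CPM per kilobase for Nop53 and 383 CPM for Npm1, and the same was seen per kilobase of coding sequence. Myc followed in PBS at 169 CPM per kilobase, but the transcript used for it, of 1365 bases, is nearly all coding sequence (1362 bases). Per kilobase of coding sequence Myc ranked only 7 in PBS and 9 with IL-33. Utp20 was the lowest in both groups at 2.16 and 1.25 CPM per kilobase of transcript. The order of the 39 genes was otherwise much the same in both groups (Spearman's rho across genes 0.947), which describes these genes and is no test.

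Log2 changes were lower for longer genes, among the members as among all genes. Over the 35 ribosome biogenesis members, Spearman's rho of transcript length and log2 change was -0.58, and -0.53 with coding length, while over 14327 genes with a length it was -0.31 (across genes, which share libraries and are not independent). In 5 bins of equal size by length over all genes, the median change went from 0.40 in bin 1, the shortest, to -0.53 in bin 5, the longest. Nhp2 and Pno1 lie in bin 2, and the 5 members that fell lie in bins 3 and 4. With the trend of length and GC content removed, the 5 that fell were called again, and Nhp2 and Pno1 were not (0.43 at an adjusted p of 0.0828 and 0.54 at 0.092). The same fit called Myc at -0.85, Fbl at -0.53 and Nop56 at -0.36, and Mxd4, Ncl and Ddx21 at 0.75, 0.43 and 0.50. It took 1365 bases for Myc, of which 1362 are coding, and 8202 for Ncl, of which 2121 are coding. The values of Myc and Ncl in this fit therefore depend on the transcript chosen. What part the length trend has in these changes was not tested.

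**Figure D5:**
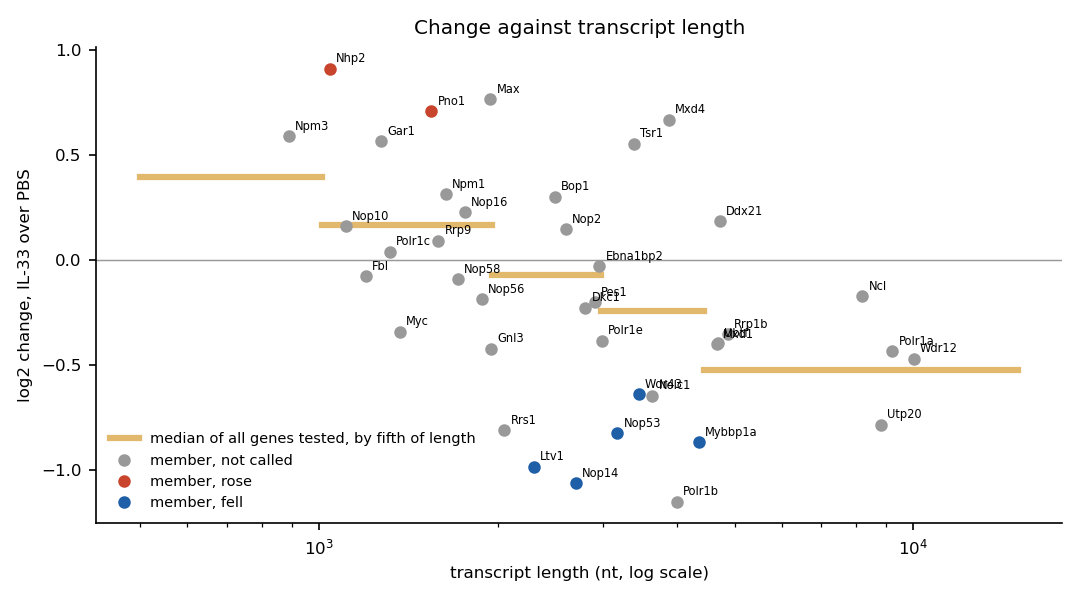
Log2 change of each of the 39 genes (vertical axis) against the length of its transcript in nucleotides (horizontal axis, log scale), with called genes in colour and the median of all genes in each of 5 length bins as bars. The bars go down from 0.40 to -0.53 with length, and the 2 genes that rose sit at the short end.

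Many genes of small nucleolar RNAs, the guide RNAs of snoRNPs, lie inside other genes. By the GENCODE M21 annotation, 8 of the 39 members (20.5%) hold a snoRNA gene on the same strand within their bounds, Ncl, Nop56, Nop58, Dkc1, Wdr43, Tsr1, Nop53 and Gnl3, against 213 of 11246 protein-coding genes tested (1.89%). The median change of these 8 was -0.21, and that of the 27 other ribosome biogenesis members -0.08. Of the 10 members with an E-box, 1 rose and 3 fell with a median of -0.03. Of the 23 with a promoter that lacks it, 1 rose and 1 fell with a median of -0.19. Over all genes tested, 13.7% were called higher and 11.6% lower. Nop53, which fell, is in neither set because no promoter was matched to it. Whether the E-box has a part in these changes was not tested.

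Reads of overlapping genes could be shared, since no source says that strand was kept. Exons of 17 members are overlapped by a gene on the other strand, among them Nhp2 over 44 bases (by Rmnd5b), Mybbp1a over 131 (Spns2), Nop14 over 144 (Gm15522) and Pno1 over 33 (Wdr92). Mean levels in PBS and IL-33 libraries were 54.1 and 53.8 CPM for Rmnd5b and 1.16 and 0.893 CPM for Spns2. They were 0.224 and 0.429 CPM for Gm15522 and 15.7 and 11.2 CPM for Wdr92. What part shared reads have in the changes was not tested. For Tsr1 the overlap with Srr covers 1240 bases, and the level of Tsr1 is uncertain for that reason. Npm1 and Npm3 have near-identical copies in the table, Gm5611 at a mean of 21.1 CPM and Npm3-ps1 at 9.58 CPM, between which reads may have been split.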

How the data were processed

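The authors deposited whole-number counts per Ensembl gene for 4 PBS and 5 IL-33 libraries. They also deposited a normalized signal, and its values are those counts over a constant for each library. The submitters' processing notes name STAR 2.7.7a, Salmon 1.6.0, DESeq2, Trimmomatic 0.39, FastQC 0.11.9 and Picard, with the build GRCm38.p6. The role of each tool is not given in the sources used here, nor is the annotation. A symbol matched 20571 of 20732 genes (99.2%), through GENCODE M21.

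The test was edgeR's two-sided robust quasi-likelihood F-test (version 4.0.16, R 4.3.3) on TMM-scaled counts of the 14405 genes that filterByExpr kept at a minimum count of 10, with Benjamini-Hochberg adjustment and a threshold of 0.05. The SE is the log2 change divided by the square root of F. Ratios were taken on counts plus 0.5 and tested with SciPy 1.17.1. Near-identical copies were found with BLAST+ 2.17.0 (at least 95% identity over 50% of the transcript). Transcript length is that of the longest principal transcript, which exceeds the coding length most for Wdr12 and Ncl. The test was checked on simulated data: among 13899 genes it called 11.9% of 84 changed 2-fold, 61.0% of 105 changed 4-fold and 2 of 13710 unchanged. Many 2-fold changes were thus missed in the simulation. Far fewer genes were changed there than the 25.2% called in the data, which makes the adjustment stricter. It also drew on the spread of all genes, so its shares do not give the rate of missed changes among the members.

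The members and the lists of pathway, cell cycle and marker genes were chosen with earlier results of these data known. Pathway genes named are, in each role, the 3 called higher and the 3 called lower with the smallest adjusted p, and the 3 cell cycle genes with the smallest. Values per library are given for the MYC network and, in each role, for the largest and smallest change and the highest level per length. Alternatives were DESeq2 size factors or library size alone, no filter or a stricter one, the replicate number as a block, a threshold of 0.01, removal of acinar and erythroid genes, removal of the length and GC trend, the DESeq2 1.42.0 Wald test, limma 3.58.1 (voom, and limma-trend on the signal plus 1 in log2), leaving out each library, and leaving out IL-33 replicates 1, 2 and 3, which are high in beta-globin. No 2 replicates of a group agreed within sampling noise.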

Additional observations from a re-analysis of the deposited data

Results flagged for a closer look

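In 6 of 104 groups of values examined, 1 library stood apart from the rest of its group by Dixon's test at the 95% level, which by chance marks about 1 group in 20. Dkc1 was at 60.7 CPM in PBS replicate 4, against 116 to 121 CPM in the other PBS libraries. Rrp9 and Gnl3 were lowest in IL-33 replicate 3, at 33.2 CPM against 55.3 to 62.4 CPM and at 16.1 CPM against 24.5 to 27.7 CPM. Gar1 was highest in IL-33 replicate 2, at 66.1 CPM against 34.0 to 42.8 CPM, and Pes1 in PBS replicate 3, at 73.3 CPM against 47.3 to 51.4 CPM. The 39 members together took 0.388% of counts in IL-33 replicate 1, against 0.462% to 0.489% in the other IL-33 libraries.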

How the results depend on the processing

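None of the 7 called members turned in direction in any of 21 alternatives, and each lost its call in at least 2: Nhp2, Wdr43 and Nop53 in 2, Nop14 in 3, Mybbp1a in 11, Ltv1 in 12 and Pno1 in 13. Of the 32 not called, 13 were called in at least 1 alternative, among them Ncl with the sign turned. Members called higher and lower, 2 and 5 in the reported analysis, were 1 and 0 with library size alone, 1 and 4 with no filter, 3 and 7 with at least 5 CPM in at least 4 libraries, 1 and 2 at a threshold of 0.01, 3 and 8 with the length and GC trend removed, 4 and 9 with the DESeq2 Wald test, 3 and 6 with voom, 2 and 6 with limma-trend, and 1 and 2 without IL-33 replicates 1, 2 and 3. With 1 library left out they ranged from 1 to 3 and from 3 to 6. Pathway genes called, 7 and 20, were 5 and 4 with library size alone, 3 and 8 at 0.01 and 1 and 5 without those 3 libraries, and those called higher ranged from 3 to 7 with 1 library left out. All genes called, 1967 and 1666, were 1019 and 767 at 0.01 and 732 and 664 without the 3 libraries; 644 were lower with library size alone and 2588 with DESeq2.

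Nothing in the labels ties the replicate numbers of the 2 groups together. Deviations of same-numbered libraries correlated at -0.03, -0.06, -0.03 and 0.07, which cannot show whether libraries were handled together by replicate number. A fit with this number as a block called 1 member higher (Mxd4, 0.78) and 1 lower (Nop14), 2 pathway genes higher and 5 lower, and 791 of all genes higher and 666 lower.

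Signs turned for members that were not called, and the cause was not tested. With the length and GC trend removed the log2 change was 0.43 for Ncl, -0.40 for Rrp9, -0.18 for Nop10, 0.12 for Polr1a, -0.37 for Polr1c, 0.25 for Wdr12 and 0.038 for Ebna1bp2. With library size alone it was 0.15 for Fbl, 0.0085 for Nop58 and 0.066 for Ebna1bp2. Fbl was at 0.026 with the block and 0.10 with voom. Polr1c was at -0.0024 with DESeq2 size factors, -0.0039 with the Wald test, -0.025 with limma-trend and -0.31 without IL-33 replicates 1, 2 and 3, where Nop58 was at 0.0062 and Nop16 at -0.017. With 1 library left out Fbl ranged from -0.22 to 0.15, Rrp9 from -0.053 to 0.24, Polr1c from -0.059 to 0.15, Nop2 from -0.075 to 0.29, Ebna1bp2 from -0.12 to 0.063 and the Npm3 to Npm1 log2 ratio difference from -0.0014 to 0.45.

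With 4 and 5 libraries a median SE of 0.23 limits what can be called.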
